A study of Mus musculus with 24 samples.

Results

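Heart and kidney, a pair of organs that arise mainly from mesoderm, were set against each other by the histone mark H3K4m3 (trimethylation of histone H3 at lysine 4). The rule took the columns of these organs from a table of 8 libraries of mouse brain, heart, kidney and liver, which gave 4 of the 8: FFPE heart, frozen heart, FFPE kidney and frozen kidney. H3K4m3 chromatin was sequenced after immunoprecipitation from organs that had been fixed in 10% formalin and embedded in paraffin (FFPE) or flash frozen. Heart FFPE and kidney FFPE tissue was deparaffinized and heated before shearing, and frozen cores of both organs were crosslinked with formaldehyde before shearing. The labels give no strain, age, sex or genotype for the mice, name no treatment beyond preservation, and do not say whether libraries came from separate animals. They describe 2 FFPE samples and 1 frozen sample of H3K4m3 per organ, and it is not stated whether an FFPE column holds 1 of these or their sum. Genes with a mean log2 value of at least 0 over the 4 libraries were compared, which were 25648 of the 27179 genes in the table.

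H3K4m3 sits on nucleosomes around the start sites of genes that are active or poised for transcription, and it spreads into broad domains over genes that specify a cell's identity. The heart is built of cardiomyocytes, whose contraction depends on the sarcomere, on calcium released from the sarcoplasmic reticulum and on ion channels, and it also holds many endothelial cells and fibroblasts. The kidney consists mainly of epithelial tubules, with a proximal tubule that reabsorbs solutes, a loop of Henle and distal tubule that separate salt from water, and a collecting duct that adjusts urine. In whole tissue, fewer cells of a type and less signal per cell cannot be told apart.

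Depth was 3388631 reads in FFPE heart and 1792394 in frozen heart, against 5275085 in FFPE kidney and 2267190 in frozen kidney. Values are given below as RPM (reads-per-million), which is the deposited value without its logarithm and includes the 0.5 read added to each count, so 0.282 in frozen heart stands for 0 reads. The 10 genes with the most reads took 15.5% of FFPE heart and 3.81% of frozen heart reads, against 10.8% of FFPE kidney and 3.19% of frozen kidney reads, and nearly all of them were mitochondrial. Mitochondrial DNA carries no histones, and its 15 tested genes were between 0.39 and 0.63 log2 units higher in heart, 4 of them past the test. Housekeeping genes had a median difference of 0.01 on the log2 scale, against -0.03 over all tested genes. Of these 12 genes 0 passed, where 4.92% of all tested genes did.

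The organs differed at 1261 genes, 4.92% of those tested. Of these, 689 were higher in heart (2.69%) and 572 were higher in kidney (2.23%), at an adjusted p under 0.05 from limma's linear model with organ and preservation. The median difference, heart minus kidney, was 1.04 log2 units among genes higher in heart and -1.38 among genes higher in kidney. Both heart libraries lay above both kidney libraries at 644 of the 689 genes, and both kidney libraries lay above both heart libraries at 537 of the 572, while 27.2% of all tested genes had libraries that did not overlap by organ. With 2 libraries per organ the model had 1 residual degree of freedom and took most of its error from the other genes through a trend with mean level. At an unadjusted p under 0.05 there were 3948 genes. The count was 248 genes (0.967%; 0.402% higher in heart and 0.565% higher in kidney) when brain and liver entered the fit, called the 8-library fit below, 13 without the preservation term and 0 without the trend (2553 at an unadjusted p under 0.05). Leaving out 1 library from the 8-library fit gave 118 genes without FFPE heart, 2 without frozen heart, 90 without FFPE kidney and 0 without frozen kidney. Some named genes overlap a neighbour in the annotation, among them Mhrt, Myh7, Myh6, Gm5563, Cox6a2, Myl2, Pln, Cryab, Slc34a1, Prss8, Avpr2, Mettl7b, Gm19950 and Glyctk. Whether reads in an overlap were counted for both genes, for 1 or for neither is not stated.

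**Figure D1:**
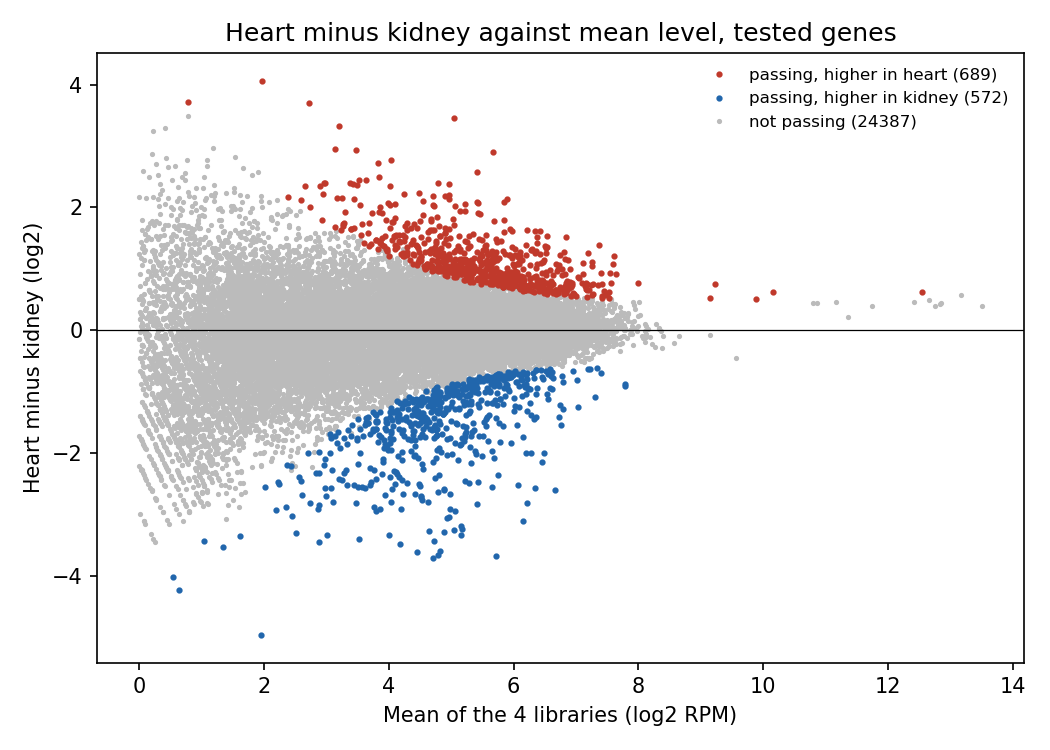
Heart minus kidney difference (log2, vertical axis) against the mean of the 4 libraries (log2 RPM, horizontal axis) for each of the 25648 tested genes. Red points are the 689 genes that passed and were higher in heart, blue points the 572 that passed and were higher in kidney, and the smallest differences that passed lie at genes with high means.

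Of 12 genes for the thick and thin filaments of the sarcomere, 8 rose in heart and 0 fell, with a median difference of 1.76 log2 units. Actc1, the actin of the cardiac thin filament (chromosome 2, 114047282 to 114052875), had 26.2 RPM in FFPE heart and 36.4 in frozen heart, against 6.53 in FFPE kidney and 2.48 in frozen kidney. Its difference was 2.94 ± 0.47 log2 units (SE), with an adjusted p of 0.000122, and every heart library lay above every kidney library. Tnni3, the inhibitory troponin of cardiac muscle, had 27.1 and 62.4 in FFPE and frozen heart, against 11.9 and 6.54 in FFPE and frozen kidney (2.22 ± 0.39, adjusted p = 0.000331). The heavy chains of cardiac myosin, Myh7 and Myh6, lie side by side on chromosome 14. Myh7 had 110 and 142 RPM in FFPE and frozen heart, against 45.0 and 17.8 in FFPE and frozen kidney (2.14 ± 0.26, adjusted p = 1.87e-06). Myh6, the main heavy chain of the adult mouse ventricle, had 85.6 and 118 in FFPE and frozen heart, against 48.6 and 22.8 in FFPE and frozen kidney (1.59 ± 0.25, adjusted p = 9.89e-05). Mhrt, a long noncoding RNA gene that overlaps Myh7 in the antisense direction, showed the largest difference in favour of heart among the genes named by the rule, with 53 and 27 reads in FFPE and frozen heart, against 7 and 1 in FFPE and frozen kidney (4.07 ± 0.73, adjusted p = 0.000501). Reads in the stretch that Mhrt shares with Myh7 cannot be assigned to either gene. Only 2 of the 8 filament genes also passed in the 8-library fit, Tnni3 and Myh6 not among them.

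Among 16 genes of titin, the Z-disc and the M-band, 7 rose in heart and 0 fell, with a median of 0.89 log2 units. Tcap, which caps titin at the Z-disc, had 15.8 and 54.5 RPM in FFPE and frozen heart, against 4.20 and 2.03 in FFPE and frozen kidney (3.33 ± 0.55, adjusted p = 0.000176). Ldb3, a Z-disc scaffold, had 86.8 and 76.5 in FFPE and frozen heart, against 46.2 and 24.6 in FFPE and frozen kidney (1.27 ± 0.22, adjusted p = 0.000361). Ttn, the giant spring protein of the sarcomere, showed a smaller difference of 0.75 ± 0.14 (adjusted p = 0.00081). It had 939 and 646 in FFPE and frozen heart, against 604 and 357 in FFPE and frozen kidney. Brain (615 and 319) and liver (571 and 303), FFPE and frozen, lay near kidney. Ttn is a long gene (chromosome 2, 76703980 to 76982557), and how much of its counts is background was not tested. Cryab, a chaperone bound to desmin and titin that many tissues express, ran the other way without passing, with 29.6 and 79.3 in FFPE and frozen heart, against 45.2 and 89.1 in FFPE and frozen kidney (-0.39 ± 0.21, adjusted p = 0.4). Ldb3 was the 1 gene of this list that passed in the 8-library fit, where the adjusted p of Tcap was 0.0509.

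Hspb3, a small heat shock protein of muscle, rose in heart as well, with 17.6 and 34.1 RPM in FFPE and frozen heart, against 2.95 and 3.38 in FFPE and frozen kidney (2.96 ± 0.50, adjusted p = 0.000219). Promoter windows are printed for Actc1 and Hspb3, a filament gene and a chaperone gene of muscle that moved together, and for Tbx20, a regulator described next. They run from 250 bases before to 50 bases after the RefSeq start (assembly GRCm38.p6) and are written 5′ to 3′ on the gene's strand, and capitals mark motif letters found by a search. The search covered the MEF2 motif and the letters GATAAG for GATA factors, CATTCC for TEAD factors (the MCAT motif), GTTAAT for one arm of an HNF1 site and CAAAGT for one arm of an HNF4 site, each on both strands, and TATAAA for a TATA box on the gene's strand alone.
Actc1, chr2:114052826-114053125, minus strand: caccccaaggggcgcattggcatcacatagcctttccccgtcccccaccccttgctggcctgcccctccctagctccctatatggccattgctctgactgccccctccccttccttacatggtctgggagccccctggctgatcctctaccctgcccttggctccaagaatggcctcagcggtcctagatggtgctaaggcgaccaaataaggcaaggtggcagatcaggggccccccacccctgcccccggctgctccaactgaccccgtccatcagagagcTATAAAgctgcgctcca
Hspb3, chr13:113663627-113663926, minus strand: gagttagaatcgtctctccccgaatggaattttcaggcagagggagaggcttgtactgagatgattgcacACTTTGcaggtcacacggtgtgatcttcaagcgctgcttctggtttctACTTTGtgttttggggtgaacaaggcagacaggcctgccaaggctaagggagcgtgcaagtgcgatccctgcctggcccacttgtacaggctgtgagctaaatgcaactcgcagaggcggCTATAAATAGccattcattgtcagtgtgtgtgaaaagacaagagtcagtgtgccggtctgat
Tbx20, chr9:24774254-24774553, minus strand: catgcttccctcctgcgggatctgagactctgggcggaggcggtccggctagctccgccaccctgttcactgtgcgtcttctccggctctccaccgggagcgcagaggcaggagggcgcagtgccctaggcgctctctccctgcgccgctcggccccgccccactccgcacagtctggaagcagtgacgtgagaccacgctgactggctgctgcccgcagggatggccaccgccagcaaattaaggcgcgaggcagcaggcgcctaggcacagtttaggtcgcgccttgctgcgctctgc
The Actc1 window held 1 TATA motif close to its start, a motif found in 8.51% of the 18287 tested genes with a window. The Hspb3 window held 1 MEF2 motif (3.57% of windows), which contains its TATA motif, and 2 copies of the HNF4 arm on the opposite strand (13.6% of windows). No motif of the search was found in the Tbx20 window, which held 26 CpG dinucleotides, against 7 in Actc1, 9 in Hspb3 and a median of 13 over all windows.

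Regulators of the cardiac programme rose in heart at 8 of 17 genes, and 0 fell, with a median of 0.64 log2 units. Hand2, a basic helix-loop-helix factor needed for the right ventricle in mice, had 72.1 and 166 RPM in FFPE and frozen heart, against 15.1 and 6.54 in FFPE and frozen kidney (3.46 ± 0.34, adjusted p = 5.9e-08). Nkx2-5, the homeobox factor that marks cardiac progenitors and cardiomyocytes, had 36.6 and 31.9 in FFPE and frozen heart, against 9.57 and 3.83 in FFPE and frozen kidney (2.50 ± 0.40, adjusted p = 0.000115). Tbx20, a T-box factor of cardiomyocytes, had 111 and 127 in FFPE and frozen heart, against 36.0 and 21.4 in FFPE and frozen kidney (2.09 ± 0.22, adjusted p = 2.65e-07). For all 3 factors the heart libraries lay above the kidney libraries, with the frozen kidney library lowest. The zinc finger factors Gata4 and Gata6 differed by 2.07 ± 0.23 (adjusted p = 7.12e-07) and 1.63 ± 0.19 (adjusted p = 1.21e-06). Gata4 stood at 86.8 and 88.9 in FFPE and frozen heart, against 25.3 and 17.4 in FFPE and frozen kidney. Gata6 stood at 109 and 156 in FFPE and frozen heart, against 38.9 and 45.3 in FFPE and frozen kidney. Gm5563, a noncoding gene that overlaps the cardiac T-box gene Tbx5, had 35.1 and 52.8 in FFPE and frozen heart, against 6.53 and 6.09 in FFPE and frozen kidney (2.77 ± 0.36, adjusted p = 7.63e-06). Isl1, a factor of early cardiac progenitors, was low in both organs, with 9.34 and 11.6 in FFPE and frozen heart, against 13.3 and 16.0 in FFPE and frozen kidney (-0.49 ± 0.42, adjusted p = 0.661). In the 8-library fit 4 of the 8 factors passed, and Nkx2-5 had an adjusted p of 0.0547.

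Ion channels and connexins of cardiomyocytes rose in heart at 8 of 14 genes, and 0 fell, with a median of 0.90 log2 units. Kcna5, the channel of the ultrarapid potassium current, was the most even of the genes with a large difference, with 139 and 140 RPM in FFPE and frozen heart, against 23.7 and 14.7 in FFPE and frozen kidney (2.91 ± 0.22, adjusted p = 9.41e-10). It was also the 1 gene higher in heart that passed without the preservation term (adjusted p = 0.0426). Outside this list of 14, Kcnj11, the pore of the ATP-sensitive potassium channel, had 80.4 and 135 in FFPE and frozen heart, against 18.9 and 16.0 in FFPE and frozen kidney (2.58 ± 0.25, adjusted p = 3.62e-08). Gja1, which encodes connexin 43 of the gap junctions between ventricular myocytes, had 52.5 and 54.5 in FFPE and frozen heart, against 18.7 and 15.1 in FFPE and frozen kidney (1.67 ± 0.27, adjusted p = 0.000131). Kcnh2 and Kcnj2, a delayed and an inward rectifier, differed by 1.31 ± 0.22 and 1.09 ± 0.22. In the 8-library fit 3 of the 8 passed, and Kcnj2 did not.

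Of 12 genes for calcium handling and natriuretic peptides, 6 rose in heart and 0 fell, with a median of 0.86 log2 units. Jph2, which holds the sarcoplasmic reticulum to the plasma membrane, had 73.3 and 106 RPM in FFPE and frozen heart, against 30.1 and 14.2 in FFPE and frozen kidney (2.09 ± 0.27, adjusted p = 7.63e-06). Nppb, the B-type natriuretic peptide, had 8.12 and 25.1 in FFPE and frozen heart, against 3.85 and 2.03 in FFPE and frozen kidney (2.35 ± 0.63, adjusted p = 0.0222). Pln, which inhibits the calcium pump of the reticulum, differed by 1.08 ± 0.25 (adjusted p = 0.00642). Slc8a1, the sodium-calcium exchanger, is also used by the distal nephron and did not pass, with 142 and 101 in FFPE and frozen heart, against 156 and 123 in FFPE and frozen kidney (-0.21 ± 0.16, adjusted p = 0.625). Jph2 was the 1 gene of these that passed in the 8-library fit.

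Energy genes of striated muscle rose in heart at 4 of 14, and 1 fell. Cox6a2, the muscle form of a cytochrome oxidase subunit, had 17.6 and 31.9 RPM in FFPE and frozen heart, against 4.92 and 0.677 in FFPE and frozen kidney (3.70 ± 0.67, adjusted p = 0.000515). It overlaps Itgad in the annotation, and reads there cannot be divided between them. Ppargc1a, a coactivator of mitochondrial genes that both organs use, was lower in heart, with 44.9 and 41.5 in FFPE and frozen heart, against 73.4 and 75.6 in FFPE and frozen kidney (-0.79 ± 0.21, adjusted p = 0.02). None of these 5 passed in the 8-library fit, where Cox6a2 had an adjusted p of 0.053 and Ppargc1a 0.169. The nuclear genes of the respiratory chain, which both organs need in quantity, gave 0 of 77 past the test in limma. Their median was -0.17 log2 units, and 4.92% of all tested genes passed. Other genes among the 15 with the largest differences in favour of heart were Mustn1 (2.73 ± 0.46), Mrap (2.45 ± 0.46), Tmem182 (2.44 ± 0.42), Trim54 (2.41 ± 0.48) and Myl2 (2.41 ± 0.52), of which Mustn1 and Trim54 belong to striated muscle and Myl2 is the regulatory light chain of ventricular myosin. Mrap, an accessory protein of the melanocortin receptor, stood higher in liver than in heart, with 34.2 and 79.4 RPM in FFPE and frozen liver and 19.1 and 38.1 in FFPE and frozen heart, against 6.35 and 3.83 in FFPE and frozen kidney. Tmem182 and Myl2 did not pass in the 8-library fit.

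**Figure D2:**
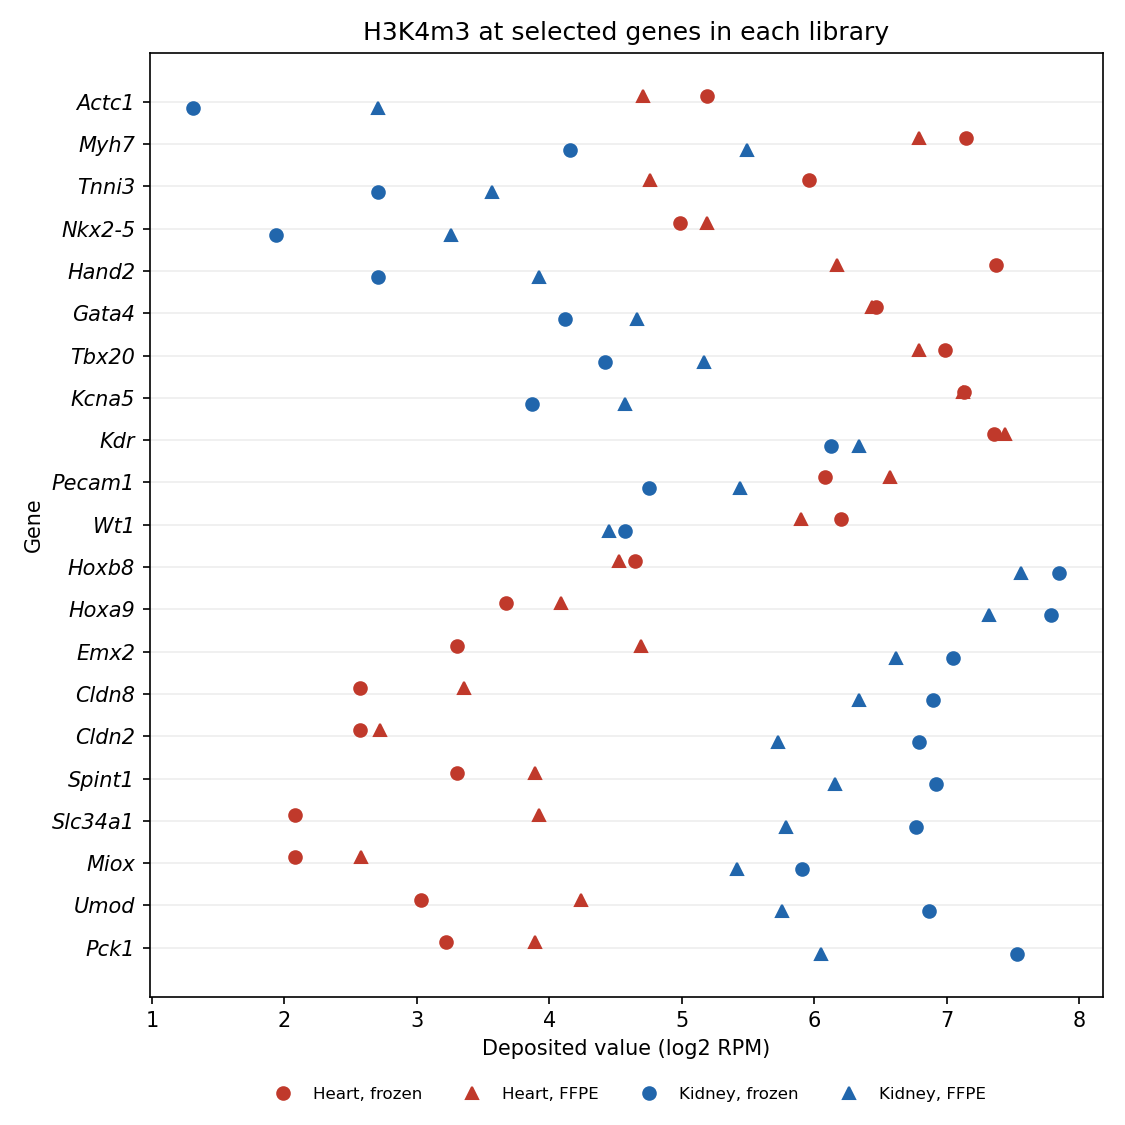
Deposited values (log2 RPM, horizontal axis) of 21 genes in heart (red, upper row of each gene) and kidney (blue, lower row), with circles for frozen and triangles for FFPE libraries. Heart symbols lie to the right of kidney symbols from Actc1 to Wt1 and to the left of them from Hoxb8 to Pck1.

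The tubule genes that passed were lower in heart in all 3 segment lists. In the proximal tubule list 14 of 18 genes fell in heart and 0 rose, with a median of -1.34 log2 units. Slc34a1, the sodium-phosphate cotransporter of the brush border, had 15.2 and 4.23 RPM in FFPE and frozen heart, against 55.4 and 109 in FFPE and frozen kidney (-3.28 ± 0.39, adjusted p = 1.85e-06). Miox, which opens the inositol ring in proximal tubule cells, had 5.97 and 4.23 in FFPE and frozen heart, against 42.7 and 60.2 in FFPE and frozen kidney (-3.33 ± 0.38, adjusted p = 6.24e-07). Slc22a12, the urate transporter, had 22.5 and 12.1 in FFPE and frozen heart, against 75.0 and 115 in FFPE and frozen kidney (-2.49 ± 0.28, adjusted p = 5.06e-07). Kap, an androgen-regulated protein of the mouse kidney, had the largest difference of any gene, with 5 and 0 reads in FFPE and frozen heart, against 80 and 71 reads in FFPE and frozen kidney (-4.97 ± 0.81, adjusted p = 0.000148). Slc13a3, a dicarboxylate transporter, had values that overlapped, with 25.9 and 22.9 RPM in FFPE and frozen heart, against 29.6 and 18.3 in FFPE and frozen kidney. Of the 14, 5 passed with 8 libraries.

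The promoter window of Slc34a1 is shown as that of a transporter gene with a large difference, on the plus strand with capitals as above.
Slc34a1, chr13:55399398-55399697, plus strand: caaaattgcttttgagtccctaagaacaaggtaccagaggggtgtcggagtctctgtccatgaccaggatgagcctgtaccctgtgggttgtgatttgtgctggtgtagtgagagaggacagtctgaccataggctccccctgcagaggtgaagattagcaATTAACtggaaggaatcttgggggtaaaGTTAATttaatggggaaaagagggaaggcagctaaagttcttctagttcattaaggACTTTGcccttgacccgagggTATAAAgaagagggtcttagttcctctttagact
It held the HNF1 arm 2 times, 1 on each strand (6.29% of windows held any), 1 HNF4 arm on the opposite strand and 1 TATA motif, with 2 CpG dinucleotides.

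Of 17 genes of the loop of Henle and distal tubule, 10 fell in heart and 0 rose, with a median of -1.25 log2 units. Umod, which encodes the uromodulin that the thick ascending limb secretes, had 18.8 and 8.18 RPM in FFPE and frozen heart, against 54.1 and 117 in FFPE and frozen kidney (-2.68 ± 0.34, adjusted p = 4.55e-06). Fxyd2, the regulatory subunit of the sodium pump in the nephron, had 8.42 and 9.31 in FFPE and frozen heart, against 43.9 and 82.8 in FFPE and frozen kidney (-2.77 ± 0.31, adjusted p = 5.9e-07). Cdh16, a cadherin of kidney epithelium, and Wnk4, a kinase that regulates distal salt transport, differed by -1.97 ± 0.22 and -1.25 ± 0.16. Of the 10, 6 passed with 8 libraries, these 4 among them.

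Collecting duct genes fell in heart at 6 of 17, and 0 rose, with a median of -0.65 log2 units. Cldn8, a claudin of the collecting duct that forms the paracellular chloride path, had 10.3 and 5.93 RPM in FFPE and frozen heart, against 81.1 and 120 in FFPE and frozen kidney (-3.66 ± 0.30, adjusted p = 3.37e-09). Avpr2, the vasopressin receptor that controls water reabsorption, had 11 and 2 reads in FFPE and frozen heart, against 139 and 52 in FFPE and frozen kidney (-3.45 ± 0.55, adjusted p = 0.000113), and it overlaps Arhgap4. Tfap2b, a transcription factor of the distal nephron and collecting duct, differed by -2.47 ± 0.23 (adjusted p = 2.01e-08). Cldn4, a partner of Cldn8 in the tight junction, differed by -2.81 ± 0.39 (adjusted p = 1.68e-05). All 4 of these genes passed in the 8-library fit as well.

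Transcription factors of the developing and adult kidney fell in heart at 12 of 20 genes, and 0 rose, with a median of -1.41 log2 units. Emx2, a homeobox factor needed for the ureteric bud in mice, had 25.9 and 9.88 RPM in FFPE and frozen heart, against 98.7 and 132 in FFPE and frozen kidney (-2.84 ± 0.29, adjusted p = 8.28e-08). Pou3f3, a POU factor of the loop of Henle and distal nephron, had 28.6 and 19.5 in FFPE and frozen heart, against 127 and 117 in FFPE and frozen kidney (-2.37 ± 0.21, adjusted p = 1.38e-08). Tfcp2l1, a factor of the distal nephron and collecting duct, differed by -1.83 ± 0.20 (adjusted p = 5.34e-07). Osr1, a zinc finger factor of the intermediate mesoderm that also acts in the early heart, pointed to heart without passing, with 17.9 and 49.4 in FFPE and frozen heart, against 11.9 and 21.9 in FFPE and frozen kidney (0.88 ± 0.32, adjusted p = 0.122). Of the 12, 11 passed with 8 libraries.

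Genes of epithelial junctions, keratins and membrane proteases fell in heart at 16 of 21, and 0 rose, with a median of -1.38 log2 units. Cldn2, the claudin of the leaky proximal tubule junction, had 6.58 and 5.93 RPM in FFPE and frozen heart, against 53.0 and 110 in FFPE and frozen kidney (-3.61 ± 0.33, adjusted p = 1.64e-08). Spint1, an inhibitor of epithelial serine proteases, had 14.9 and 9.88 in FFPE and frozen heart, against 71.3 and 121 in FFPE and frozen kidney (-2.94 ± 0.28, adjusted p = 3.96e-08). Prss8, a protease that activates the epithelial sodium channel, differed by -3.34 ± 0.35 (adjusted p = 1.95e-07), and Cldn7, a claudin of the distal nephron, by -2.03 ± 0.26 (adjusted p = 5.78e-06). In the 8-library fit 9 of the 16 list members passed, these 4 among them.

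Enzymes of sugar and amino acid metabolism that kidney shares with liver fell in heart at 6 of 18, and 0 rose, with a median of -0.87 log2 units. Pck1, the committed enzyme of gluconeogenesis, had 14.9 and 9.31 RPM in FFPE and frozen heart, against 66.5 and 184 in FFPE and frozen kidney (-3.23 ± 0.32, adjusted p = 5.5e-08). Fbp1, a later enzyme of the same path, had 4.75 and 5.36 in FFPE and frozen heart, against 20.1 and 44.9 in FFPE and frozen kidney (-2.58 ± 0.43, adjusted p = 0.000178). Glyctk, glycerate kinase, differed by -2.16 ± 0.33 (adjusted p = 5.77e-05). Pck1 and Fbp1 were the 2 that passed in the 8-library fit. Other genes among the 15 with the largest differences in favour of kidney were Pdzk1ip1 (-3.49 ± 0.42), Tmem174 (-3.44 ± 0.31) and Mettl7b (-3.41 ± 0.51), which passed in both fits, and Glod5, Gm17750, Gm19950 and Tcl1b5, which had 0 reads in frozen heart, between 1 and 6 in FFPE heart, between 12 and 20 in frozen kidney and between 27 and 45 in FFPE kidney.

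Of 12 genes of the podocyte, a cell of the glomerular filter, 3 rose in heart and 0 fell, with a median of 0.35 log2 units. Wt1, a zinc finger factor of podocytes that also marks the epicardium and mesothelium, had 59.6 and 73.7 RPM in FFPE and frozen heart, against 21.9 and 23.7 in FFPE and frozen kidney (1.54 ± 0.24, adjusted p = 8.12e-05). Foxc2, a forkhead factor of podocytes and of lymphatic and vascular cells, differed by 0.67 ± 0.17 (adjusted p = 0.0165), and Synpo, an actin-binding protein of podocytes and neurons, by 0.60 ± 0.18 (adjusted p = 0.0431). In heart the 7 mesothelium and epicardium markers summed to 178 and 235 RPM in FFPE and frozen tissue. In kidney they summed to 151 and 99.5 in FFPE and frozen tissue. This sum contains Wt1 and Tbx18, so it is no separate measure beside the Wt1 difference. The median difference of the 7 markers was -0.45 in FFPE and 0.56 in frozen tissue. The part of these cells in the Wt1 difference was not tested. Apart from Wt1, Tbx18, a T-box factor of the epicardium, passed among these 7 (1.38 ± 0.28, adjusted p = 0.00251). None of the 3 podocyte genes, nor Tbx18, passed in the 8-library fit, in which Wt1 had an adjusted p of 0.0698.

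Hox genes are homeobox genes that lie in clusters A to D in an order that matches the head-to-tail order of their use in the embryo, and paralog groups are numbered in the same order. Of 39 Hox genes, 28 fell in heart and 0 rose, with a median of -1.69 log2 units. The share was 8 of 12 in paralog groups 1 to 4 (median -1.38), 20 of 21 in groups 5 to 11 (median -2.53) and 0 of 6 in groups 12 and 13 (median -0.28). Hoxa9 (chromosome 6, 52223097 to 52227370) had 17.0 and 12.7 RPM in FFPE and frozen heart, against 159 and 222 in FFPE and frozen kidney (-3.68 ± 0.23, adjusted p = 9.72e-12). Hoxb8 (chromosome 11, 96279401 to 96285325) had 23.1 and 25.1 in FFPE and frozen heart, against 189 and 231 in FFPE and frozen kidney (-3.12 ± 0.19, adjusted p = 9.72e-12). Hoxb6 and Hoxa10 differed by -3.27 ± 0.26 and -2.58 ± 0.20, and 1 member of each remaining cluster, Hoxc10 and Hoxd10, named after their values were seen, by -3.29 ± 0.29 and -2.92 ± 0.27. Hoxc6, the member of groups 5 to 11 that did not pass, had 11.2 and 8.75 in FFPE and frozen heart, against 25.7 and 16.9 in FFPE and frozen kidney (-1.08 ± 0.38, adjusted p = 0.123). Hoxa2, the member that pointed most to heart, had 40.9 and 33.6 in FFPE and frozen heart, against 37.1 and 19.6 in FFPE and frozen kidney (0.46 ± 0.27, adjusted p = 0.449). With 8 libraries 16 of the 28 passed, and without the preservation term 6 did, Hoxa9 and Hoxb8 among them. Neighbouring Hox genes and their antisense genes overlap, so their values are not independent.

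**Figure D3:**
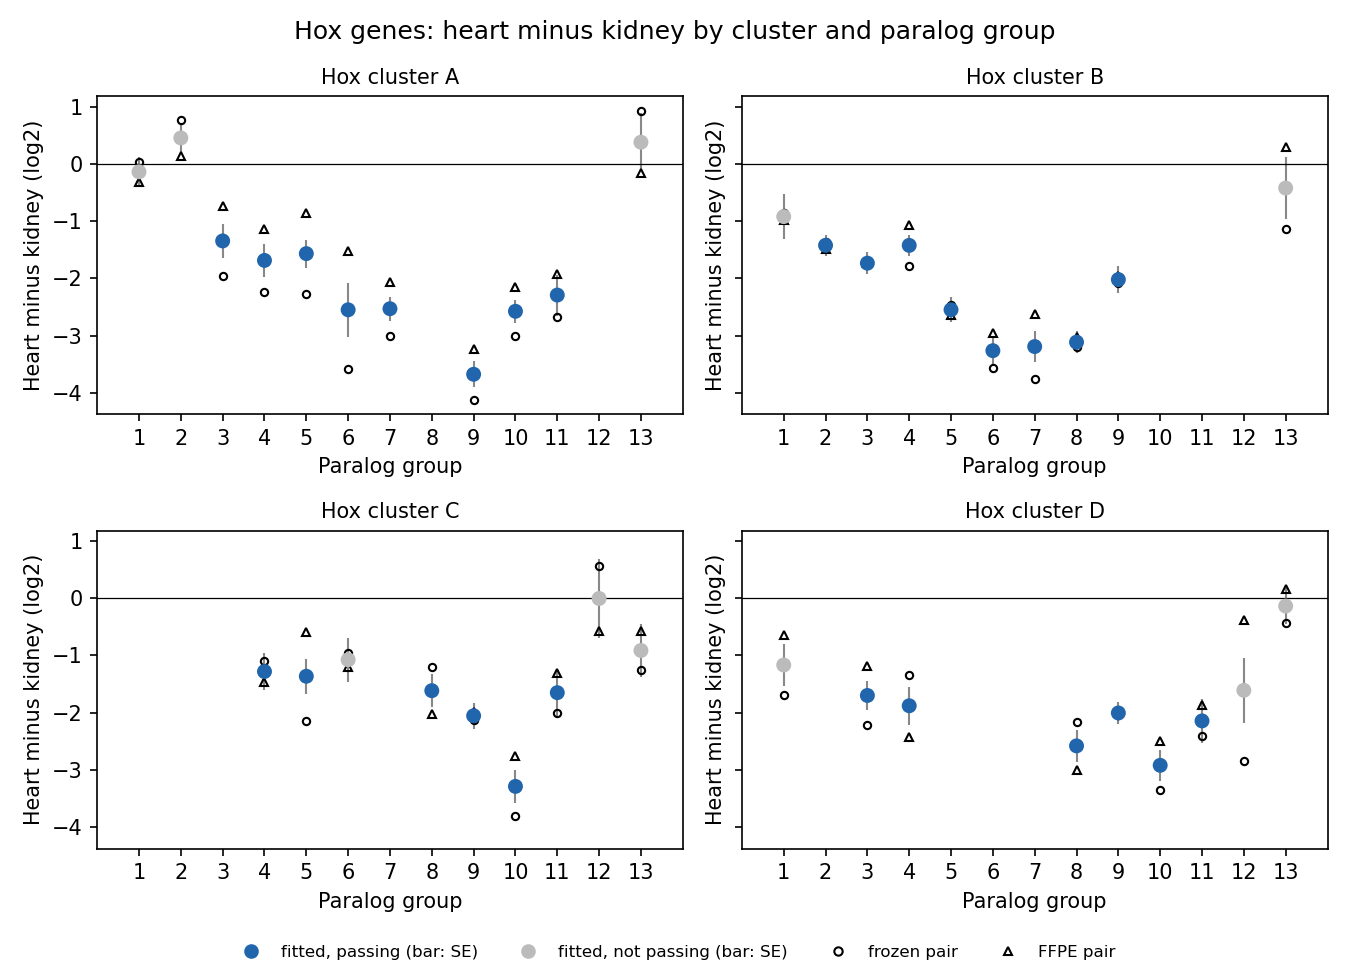
Heart minus kidney difference (log2, vertical axis) of each tested Hox gene by paralog group (horizontal axis) in clusters A to D, with filled circles for the fitted difference (blue where it passed) and bars for its SE, and with open triangles for the FFPE pair and open circles for the frozen pair. The median difference is -1.38 in paralog groups 1 to 4, -2.53 in groups 5 to 11 and -0.28 in groups 12 and 13.

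The Hoxb8 window is printed as that of a gene from the middle of a cluster, with capitals as above. It surrounds the start that the RefSeq promoter table lists, which lies inside the gene span given above and not at its outer end.
Hoxb8, chr11:96281655-96281954, plus strand: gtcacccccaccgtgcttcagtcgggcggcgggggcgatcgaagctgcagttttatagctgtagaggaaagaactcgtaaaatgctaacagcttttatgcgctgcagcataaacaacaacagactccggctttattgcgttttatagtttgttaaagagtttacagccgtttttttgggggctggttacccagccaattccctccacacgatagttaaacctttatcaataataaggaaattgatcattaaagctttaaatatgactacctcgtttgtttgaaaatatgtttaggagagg
It held none of the 6 motifs and 13 CpG dinucleotides, the median number of all windows.

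MicroRNA genes were read at low depth, and 2 of 174 passed, 1 in each direction (0.575% each, below the 2.69% and 2.23% of all tested genes). Mir196b, which lies between Hoxa9 and Hoxa10, had 1 and 3 reads in FFPE and frozen heart, against 44 and 26 in FFPE and frozen kidney (adjusted p = 0.012). Mir1a-1, one of the genes of the microRNA abundant in heart and skeletal muscle, had 11 and 19 reads in FFPE and frozen heart, against 5 and 0 in FFPE and frozen kidney (adjusted p = 0.047). Both lost the call in the 8-library fit, with adjusted p-values of 0.149 and 0.204. Their mature sequences from RefSeq (GRCm38.p6) are given because a microRNA pairs with its targets through the seed, with that seed, bases 2 to 8, in capitals. The 3 sequences printed share no seed, and the 3p arm of Mir1a-1 is not shown here. The seed printed for Mir1a-1 is that of its 5p arm alone, and it need not be the seed of the abundant microRNA.
mmu-miR-196b-5p: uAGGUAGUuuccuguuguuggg
mmu-miR-196b-3p: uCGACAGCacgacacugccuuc
mmu-miR-1a-1-5p: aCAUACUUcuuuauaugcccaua
The reads count H3K4m3 chromatin over these genes and give no level of the microRNAs themselves.

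Of 16 endothelial markers 7 rose in heart, 0 fell and 9 did not pass, with a median of 0.67 log2 units. Kdr, a receptor of vascular endothelial growth factor, had 174 and 164 RPM in FFPE and frozen heart, against 81.1 and 70.1 in FFPE and frozen kidney (1.16 ± 0.17, adjusted p = 3.28e-05). Pecam1, an adhesion protein of endothelial junctions, had 95.1 and 67.4 in FFPE and frozen heart, against 43.4 and 26.8 in FFPE and frozen kidney (1.23 ± 0.21, adjusted p = 0.000316). Cldn5, the claudin of endothelium, differed by 1.48 ± 0.23 (adjusted p = 8.53e-05), the opposite direction to the tubule claudins. The summed level of the 16 markers was 1301 and 1177 RPM in FFPE and frozen heart, against 769 and 720 in FFPE and frozen kidney. Emcn, a sialomucin abundant in capillary and glomerular endothelium, overlapped between the organs, with 26.5 and 20.6 in FFPE and frozen heart, against 21.6 and 29.5 in FFPE and frozen kidney. These 3 passing genes also passed with 8 libraries, and the other 4 did not.

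Fibroblast and smooth muscle markers rose in heart at 3 of 15 (20%, against 2.69% of all tested genes), and 0 fell. Their median was 0.37 log2 units, with 0.14 in FFPE and 0.585 in frozen tissue. The 3 were matrix genes of fibroblasts, the collagen gene Col1a1 and the proteoglycan genes Dcn and Lum, and no smooth muscle marker passed. Lum had 27.4 and 43.2 RPM in FFPE and frozen heart, against 13.5 and 8.34 in FFPE and frozen kidney (1.70 ± 0.36, adjusted p = 0.00297), and Dcn had 40.6 and 45.4 in FFPE and frozen heart, against 16.9 and 12.0 in FFPE and frozen kidney (1.60 ± 0.30, adjusted p = 0.000826). These 3 did not pass in the 8-library fit. Of 8 adipocyte markers 1 passed (12.5%), Fabp4, a fatty acid carrier of adipocytes and of capillary endothelium (1.37 ± 0.32, adjusted p = 0.00868). It too did not pass with 8 libraries. With limma 0 of 15 immune, 0 of 11 skeletal muscle and 0 of 8 adrenal cortex genes passed. The count was also 0 for 12 neuron, 12 liver plasma protein and 4 Y-linked genes. Since 4.92% of all tested genes passed, lists this short can hold 0 without meaning that these cells do not differ. Skeletal muscle markers summed to 224 and 161 RPM in FFPE and frozen heart, against 226 and 114 in FFPE and frozen kidney. Adrenal cortex markers summed to 113 and 63.2 in FFPE and frozen heart, against 128 and 78.5 in FFPE and frozen kidney. No marker of these lists was at 0 reads in any of the 4 libraries. Csf1r, a receptor of macrophages, had 31.7 and 21.2 in FFPE and frozen heart, against 35.3 and 34.1 in FFPE and frozen kidney.

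**Figure D4:**
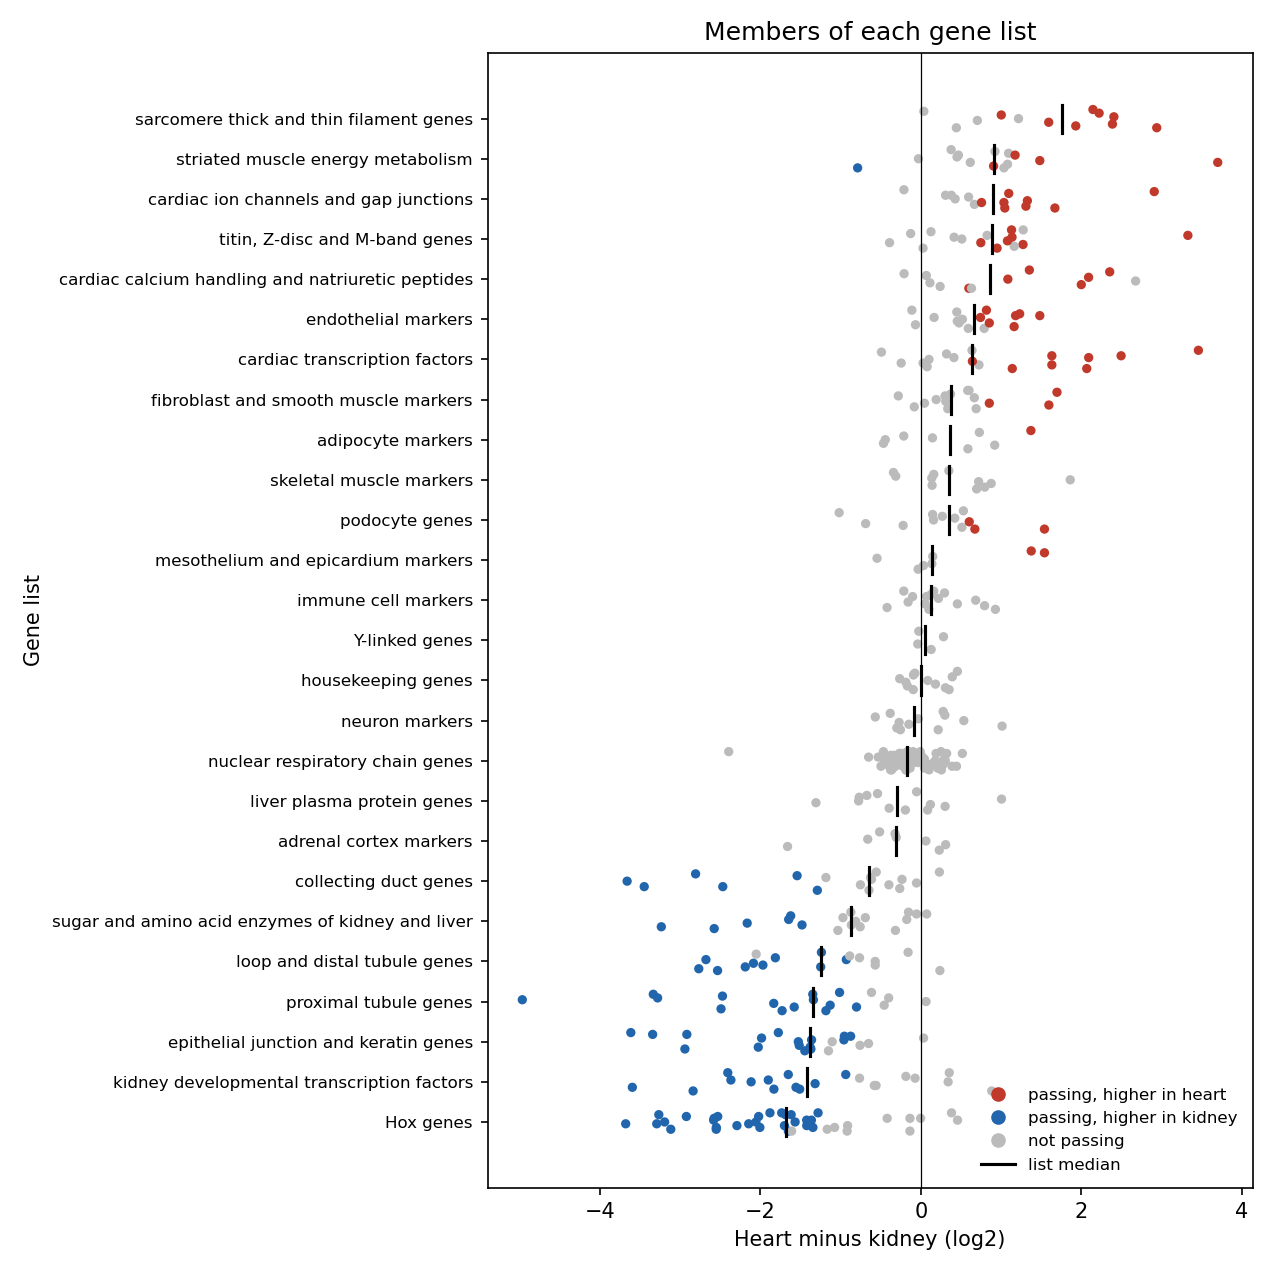
Heart minus kidney difference (log2, horizontal axis) of each member of 26 gene lists (rows), in red where it passed and was higher in heart, blue where it passed and was higher in kidney and grey where it did not pass, with a black bar at each list's median. Contractile, cardiac and endothelial lists lie to the right of 0, and tubule, epithelial and Hox lists to the left.

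Wider gene families were counted after the values of these genes had been seen. Of 337 solute carrier genes 11 rose in heart (3.26%, against 2.69% of all tested genes) and 41 fell (12.2%, against 2.23% of all tested genes). Slc3a1, part of the cystine transporter of the proximal tubule, had 14.2 and 2.54 RPM in FFPE and frozen heart, against 31.2 and 48.0 in FFPE and frozen kidney (-2.69 ± 0.47, adjusted p = 0.000395). Slc27a2, a fatty acid transporter of kidney and liver, had 13.6 and 12.7 in FFPE and frozen heart, against 49.6 and 62.5 in FFPE and frozen kidney (-2.08 ± 0.28, adjusted p = 1.26e-05). Of 92 potassium channel genes 9 rose in heart (9.78%) and 3 fell (3.26%). Of 19 Sox genes 5 rose (26.3%) and 0 fell, and Sox7, a factor of endothelial cells, had 83.8 and 85.5 in FFPE and frozen heart, against 24.2 and 21.4 in FFPE and frozen kidney (1.89 ± 0.23, adjusted p = 1.85e-06). Sox9, a factor of progenitor cells in many organs, had 53.7 and 94.0 in FFPE and frozen heart, against 41.2 and 25.0 in FFPE and frozen kidney (1.15 ± 0.26, adjusted p = 0.00649). Of 35 Adamts and laminin genes of the matrix 8 rose (22.9%) and 0 fell, and Lama4, a laminin chain of vessel walls, had 110 and 150 in FFPE and frozen heart, against 51.6 and 53.9 in FFPE and frozen kidney (1.29 ± 0.19, adjusted p = 3.06e-05). Of 94 cytochrome P450 genes 0 rose and 6 fell (6.38%). The shares of solute carrier genes that rose and of potassium channel genes that fell were near those of all tested genes. Slc3a1 and Sox9 did not pass in the 8-library fit.

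The organ difference was measured once in FFPE and once in frozen tissue, which share no library. Over all 25648 genes the FFPE and frozen differences had the same sign at 58.7%, with a Pearson correlation of 0.244 and a Spearman correlation of 0.262 across genes, which are not independent of each other and share the depth of their libraries. All 1261 genes that passed had the same sign in both, which the choice of genes by the joint fit favours. Among genes higher in heart the median difference was 0.90 in FFPE and 1.20 in frozen tissue, and among genes higher in kidney it was -1.02 in FFPE and -1.71 in frozen tissue. The spread over all genes was narrower in FFPE (SD 0.67) than in frozen tissue (SD 0.99), while the FFPE libraries were the deeper ones. Frozen differences exceeded FFPE differences in size at 487 of the 689 and 462 of the 572 genes. Tissue preparation, depth and any difference in library kit cannot be told apart here.

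**Figure D5:**
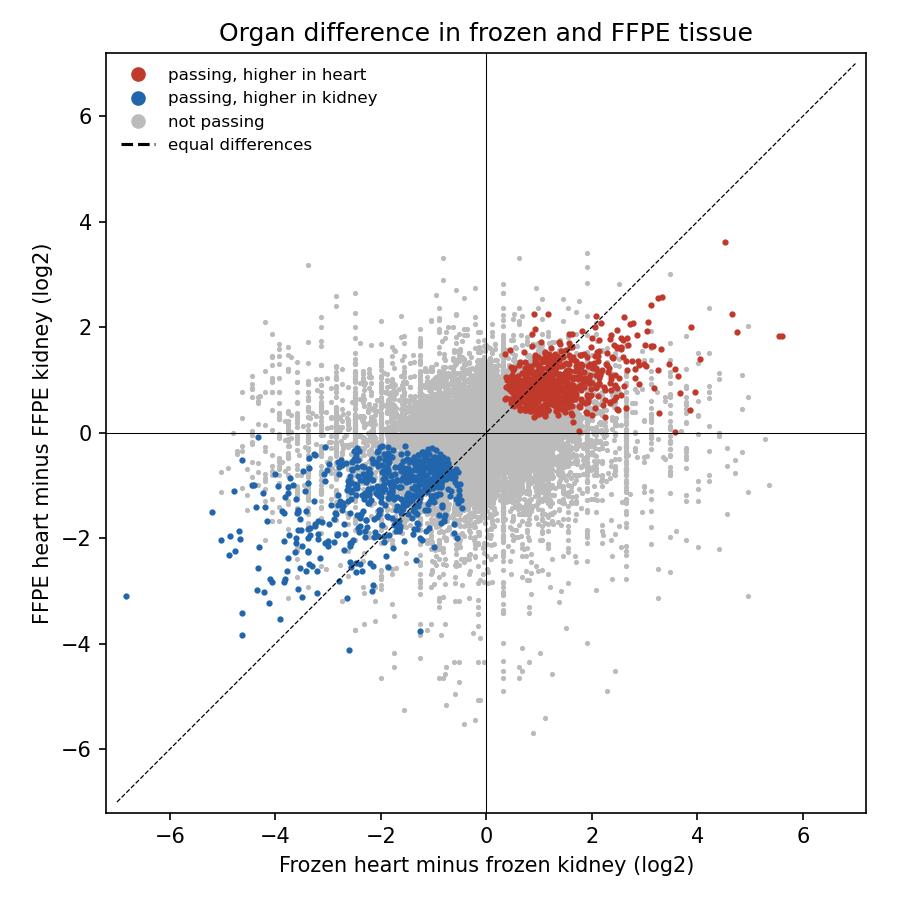
Heart minus kidney difference (log2) in FFPE libraries (vertical axis) against that in frozen libraries (horizontal axis) for each tested gene, in red and blue where it passed and was higher in heart or in kidney, in grey elsewhere, with a dashed line of equal differences. Coloured points fall at the lower left and upper right and mostly lie nearer to the horizontal axis than the dashed line does.

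Brain and liver, the other organs of the table, placed these genes further. Of the 689 genes higher in heart, 525 were highest in heart of all 4 organs (76.2%), and of the 572 higher in kidney 387 were highest in kidney (67.7%). Brain alone lay above the midpoint of the heart and kidney means at 190 genes higher in heart, and liver alone at 75. Among genes higher in kidney the order was turned, with liver alone above the midpoint at 170 genes and brain alone at 72. Kcnj11 is a gene of the first kind, with 138 and 117 RPM in FFPE and frozen brain, and Pck1 of the second, with 40.0 and 282 in FFPE and frozen liver. These are descriptions with no test, since heart or kidney had to be high for a gene to be counted. The same shares were not computed over all tested genes. Whether brain or liver lies above such midpoints as often at other genes is therefore not known.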

How the data were processed

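The authors deposited log2 values per gene and library. Per the submitters' processing notes, the tools were Bowtie2, featureCounts and limma and the build was mm10. Versions, strand use and the counted part of each gene are not stated. Each value was log2 RPM with 0.5 read added to the count and a rescaled library total, and whole reads, within 0.001, came back for 100% of values. The labels name 2 library kit families without assigning them, and the 12 input samples were not analysed here.

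Genes with a mean log2 value of at least 0 over the 4 heart and kidney libraries (25648) were tested with limma 3.58.1 in R 4.3.3 (organ plus preservation, empirical Bayes with an intensity trend, Benjamini-Hochberg over all tested genes, threshold 0.05), after the same code had been tested on simulated data. Each organ had 1 library per preservation type, so the p-values do not rest on replicate libraries or animals. Their error came from the gap between the FFPE and frozen differences and, mostly, from other genes of similar level. That gap may be technical. A count of 0 allows up to 3 reads, 0.537 to 1.69 RPM by library. This covers counting error alone, as PCR copies of a molecule are counted again.

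The members and lists were chosen with earlier results of these data known, and 8 gene families were added after the values had been seen. Named genes were the 15 largest differences per direction that passed with libraries not overlapping and a log2 value of at least 2 in both libraries of the higher organ, the 4 smallest p-values per list, the member most against its list, and 4 markers (Actc1, Tbx20, Cldn8, Hoxb8). Some genes that this rule gives are not reported here. Symbols and coordinates came from a RefSeq table (GRCm38.p6) that matched 25275 gene IDs. Promoter windows existed for 68.8% of genes higher in heart and 71.7% of genes higher in kidney, against 71.3% of all tested genes. Promoters were not tested between these sets, and their motif shares are not reported here. Alternatives covered the fit, scaling, filter, added value and left-out libraries.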

Additional observations from a re-analysis of the deposited data

Results flagged for a closer look

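For 5 lists the median heart minus kidney difference had opposite signs in FFPE and in frozen tissue, and the difference between them was not tested, since each rests on 1 library per organ. The mesothelium and epicardium markers had -0.45 in FFPE and 0.56 in frozen tissue, which makes the frozen value 1.00 log2 units higher. Neuron markers had -0.48 in FFPE and 0.40 in frozen tissue, 0.88 apart. For liver plasma protein genes the medians were 0.07 in FFPE and -0.61 in frozen tissue, with the frozen value -0.68 from the other. Immune cell markers had 0.20 in FFPE and -0.03 in frozen tissue, a gap of -0.24. Housekeeping genes had 0.04 in FFPE and -0.04 in frozen tissue, a gap of -0.07. Of these lists only the mesothelium and epicardium markers held genes that passed, Wt1 and Tbx18, and each of these 2 was higher in heart in both preservation types. The same held for 2 named genes that did not pass. Slc13a3 had -0.19 in FFPE and 0.32 in frozen tissue, 0.52 apart. Emcn had 0.30 in FFPE and -0.52 in frozen tissue, a gap of -0.82.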

How the results depend on the processing

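The 1261 passing genes (689 higher in heart, 572 higher in kidney) became 248 (103 and 145; 41.5% higher in heart, against 54.6%) with all 8 libraries in 1 fit, 13 (1 and 12) without the preservation term and 0 (0 and 0) without the intensity trend, and all 248 and all 13 were among the 1261. Quantile normalization, median centring, no low-value filter, a mean log2 value of at least 3, 2 added before the log, precision weights and robust empirical Bayes gave between 944 and 1317. Leaving out 1 library gave from 0 to 175 genes in all, from 0 to 43 higher in heart and from 0 to 148 higher in kidney. The cause of these losses was not tested. No paired analysis was possible because the columns carry no replicate numbers. The preservation term already compares the organs within FFPE and within frozen tissue.

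Of 103 genes that the rule or the text names, 94 passed, and 34 of these were no longer past the threshold in the 8-library fit, 84 without the preservation term and 94 without the trend. Directions held under every alternative for those that passed. Leaving out 1 library moved Cryab between -1.102 and 0.322, Hoxa2 between -0.003 and 0.917, Slc8a1 between -0.452 and 0.034, Slc13a3 between -0.284 and 0.413 and Emcn between -0.432 and 0.209. Slc13a3 also turned to -0.007 with quantile normalization and -0.055 with precision weights, and Emcn to 0.022 with precision weights. The median of the mesothelium and epicardium markers turned to -0.143 with precision weights and -0.447 in FFPE libraries alone, and lay between -0.442 and 0.716 without 1 library, while that of the adipocyte markers lay between -0.015 and 0.929. Median centring left 3 calcium and natriuretic genes passing, against 6, and precision weights gave 5 podocyte genes, against 3, and 3 cytochrome P450 genes, against 6 (2 with median centring). Depth limits genes of few reads most: frozen heart held 1792394 reads, and 1693 genes had 0 there.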
